A study of Mus musculus with 2 samples.

Results

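The 31 genes described here make cholesterol or move, sense and store it, out of 32285 genes counted in each library. They were chosen by name, from what each gene product is known to do, and the rule uses no measured value. Earlier results of these data were known when they were chosen. By role, 8 act in the mevalonate and isoprenoid steps, 11 in the steps from squalene to cholesterol, 6 in the control of the pathway and 6 in transport and storage. The first 2 roles are called the 19 synthesis genes below. The cells came from Wild-type mice whose dividing cells took up the thymidine analogue EdU at embryonic day 12 (E12) and whose brain was taken at postnatal day 3 (P3). The pallium, the dorsal forebrain that includes the cerebral cortex, was dissected and pooled. Sorting kept viable (PI-), EdU+ cells in the brightest 10%, which went into droplet capture with 3′ chemistry (10x v3.1) as 2 libraries, called replicate 1 and replicate 2. There is 1 group and no treatment, so the comparisons are between kinds of cells inside the same libraries, and the sort sets which cells could be seen.

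Cholesterol does not cross the blood-brain barrier to any large extent, so the brain makes its own. Acetyl-CoA is built into mevalonate and then into isoprenoid units, which are joined into squalene, closed into lanosterol and trimmed to cholesterol. SREBP proteins, held back by INSIG when sterols are plentiful and escorted by SCAP when they are scarce, switch the synthesis genes on. LXR receptors switch on export through ABCA1 and ABCG1. In brain, astrocytes are known to load cholesterol onto particles that carry apolipoprotein E, oligodendrocytes use it for myelin, and microglia take it up from debris.

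Cells were put into classes by marker genes that are not among the 31: a cell needed at least 3 UMIs (counted transcript molecules) and a level of 200 CPM of a class's genes, and no other class met. The Aqp4 class held 1160 and 1186 cells of replicate 1 and 2, the Pdgfra class 3275 and 3525, the Enpp6 class 7 and 23, the Neurod2/Neurod6 class 817 and 897, the Gad1/Gad2 class 741 and 836 and the C1qa class 128 and 143. A further 4159 and 3464 cells met no class and 79 and 113 met more than 1. Marker lists left out of the rule followed the classes: 9 astroglial genes summed to 7186 and 7846 CPM (counts per 1e+06 UMIs of a class) in Aqp4 cells and to 645 or less on average in each other class. The 10 oligodendrocyte genes summed to 14171 and 15776 CPM in Enpp6 cells. In C1qa cells 8 microglial genes reached 14084 and 13880.0 CPM, and Mrc1, Pf4 and Lyve1, markers of macrophages at the brain's borders, 2349.7 and 1982. A class is a range of a marker count, not a sharp type: 216 and 217 Aqp4 cells had exactly 3 Aqp4 UMIs, 993 and 871 cells outside the class had 1 or 2, and the median cell of each class had 0 UMIs of each other class's genes. Median depth ran from 6366 UMIs per cell (Neurod2/Neurod6 cells, replicate 1) to 16866 (Enpp6 cells, replicate 2), and 40 barcodes occurred in both libraries.

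The promoter of Hmgcs1, the gene of the synthase that makes HMG-CoA, is shown because it was the only one of the 26 members with a RefSeq promoter entry that held the sterol regulatory element letters searched. Sc5d and Ebp are shown beside it because, as described below, Sc5d follows the level pattern of most synthesis genes and Ebp does not. Each line gives the 250 bases before the transcription start, 5′ to 3′ on the gene's strand, from RefSeq sequence of GRCm38.p6. They lie at chr13:119690101-119690350 on the plus strand (Hmgcs1), chr9:42264301-42264550 on the minus strand (Sc5d) and chrX:8193513-8193762 on the minus strand (Ebp). Capitals mark the letters TCACNCCAC and GGGCGG, on either strand.
Hmgcs1: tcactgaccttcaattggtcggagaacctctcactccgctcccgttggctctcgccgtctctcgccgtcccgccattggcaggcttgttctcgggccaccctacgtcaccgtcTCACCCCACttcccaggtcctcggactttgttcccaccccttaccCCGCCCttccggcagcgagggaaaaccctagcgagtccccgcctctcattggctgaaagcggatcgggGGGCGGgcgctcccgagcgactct
Sc5d: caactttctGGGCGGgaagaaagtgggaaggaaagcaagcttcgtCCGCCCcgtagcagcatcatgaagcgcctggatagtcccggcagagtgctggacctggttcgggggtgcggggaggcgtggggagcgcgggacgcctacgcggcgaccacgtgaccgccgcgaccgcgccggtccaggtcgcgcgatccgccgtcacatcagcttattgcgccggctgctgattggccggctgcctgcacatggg
Ebp: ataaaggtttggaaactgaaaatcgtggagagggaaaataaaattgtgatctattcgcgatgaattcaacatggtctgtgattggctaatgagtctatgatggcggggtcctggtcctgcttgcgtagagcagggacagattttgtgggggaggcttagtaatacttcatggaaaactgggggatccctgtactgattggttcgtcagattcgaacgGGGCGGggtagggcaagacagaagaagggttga
In Hmgcs1 the letters TCACCCCAC begin 137 bases before the start. TCACNCCAC occurred in 1.05% of all 32851 promoter windows of this length. TCACNTGA, an E-box form that SREBP can also bind, occurred among the members in Insig2 alone and in 3.45% of all windows. GGGCGG, the core letters bound by Sp1, stood in 15 of 19 windows of synthesis genes (78.9%) and in 24 of 36 windows of all members (66.7%), against 32.7% of all windows. A match in these letters is a description and not a binding site.

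The synthesis genes stood highest in astroglia-marked Aqp4 cells, at intermediate levels in Pdgfra cells, low in both neuronal classes and lowest in C1qa cells. The 19 genes summed to 3943 and 3852 CPM in Aqp4 cells of replicate 1 and 2, to 2657 and 2624 in Pdgfra cells and to 1938 and 2723 in Enpp6 cells. They summed to 1164 and 1075 CPM in Neurod2/Neurod6 cells, 1070.4 and 1099 in Gad1/Gad2 cells and 484 and 512 in C1qa cells. The libraries of the classes did not overlap, except that Enpp6 cells, with 7 and 23 cells, spanned the Pdgfra values and that the neuronal classes overlapped each other. Inside each library the Aqp4 sum was 3.39 and 3.58 times the Neurod2/Neurod6 sum, 1.48 and 1.47 times the Pdgfra sum and 8.15 and 7.52 times the C1qa sum. With every cell thinned to 2000 UMIs, the median cell held 8 and 7 UMIs of the 19 genes in the Aqp4 class, 5 and 5 in the Pdgfra class, 2 and 2 in each neuronal class and 1 and 1 in the C1qa class. Of the thinned C1qa cells, 39.2% in either library held none, against 1.42% and 0.694% of Aqp4 cells.

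**Figure D1:**
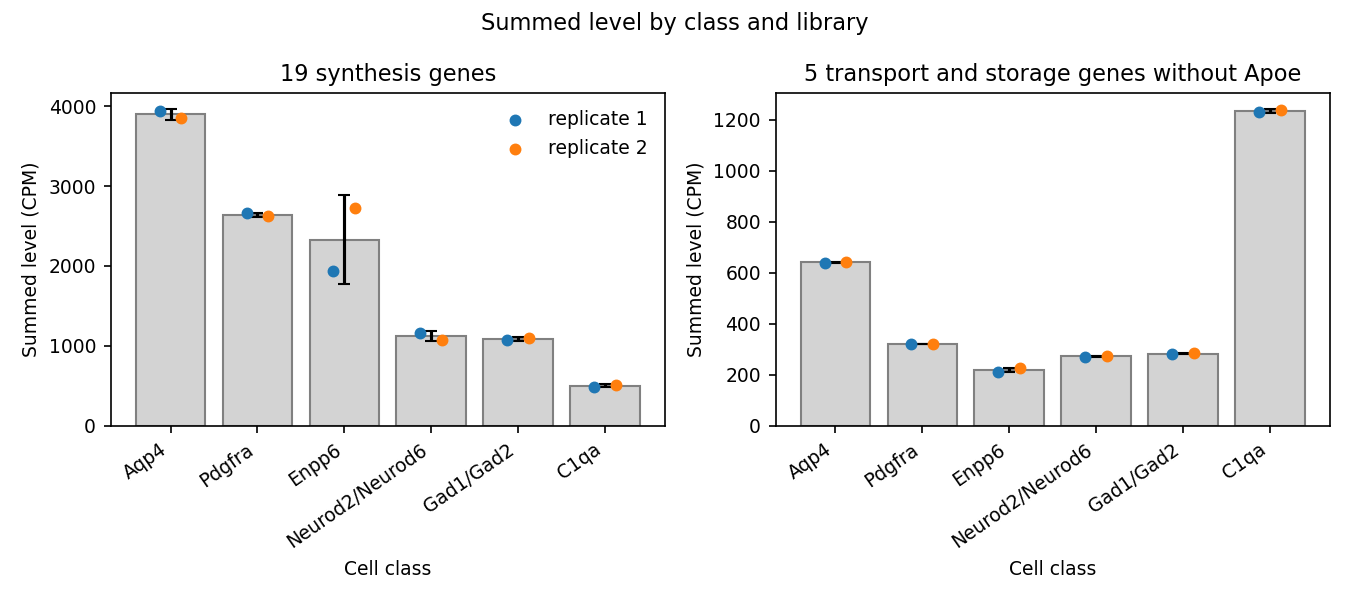
Bars give the mean and error bars the SD (n = 2 libraries) of the summed level in CPM of the 19 synthesis genes (left) and of the 5 transport and storage genes other than Apoe (right), by cell class, and points give each library. Synthesis is highest in Aqp4 cells (3943 and 3852) and lowest in C1qa cells, while the transport and storage sum is highest in C1qa cells (1229 and 1238).

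Of the transport and storage genes 4 of 6 (Abca1, Abcg1, Apoe and Npc2) were called higher in C1qa than in Aqp4 cells, as described below. Npc1 was called lower and Soat1 was not called. Of all genes tested 30.7% were called higher and 34.5% lower in this comparison. Abca1 was not called in the C1qa cells without border macrophage markers, also described below. Apoe alone made up most of that sum in Aqp4 and C1qa cells, so it was set apart, and the other 5 genes summed to 1229 and 1238 CPM in C1qa cells, 639 and 642 in Aqp4 cells, 319 and 321 in Pdgfra cells, 282 and 283 in Gad1/Gad2 cells, 271 and 271 in Neurod2/Neurod6 cells and 211 and 225 in Enpp6 cells. C1qa cells thus held 1.92 and 1.93 times the Aqp4 sum in the same libraries in which they held 0.123 and 0.133 times the Aqp4 synthesis sum. Npc2 alone made up 69.4% and 67.5% of that transport and storage sum in C1qa cells and 54.2% and 51.9% in Aqp4 cells, and the other 4 genes summed to 376 and 402 CPM in C1qa and 293 and 309 in Aqp4 cells. By single genes, 19 of the 31 had their highest mean level in Aqp4 cells, 5 in C1qa cells, 3 in Pdgfra cells, 2 in Neurod2/Neurod6 cells and 1 each in Enpp6 and Gad1/Gad2 cells. All 31 passed the filter on low counts, and the heat map of levels shows each against its own mean.

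**Figure D2:**
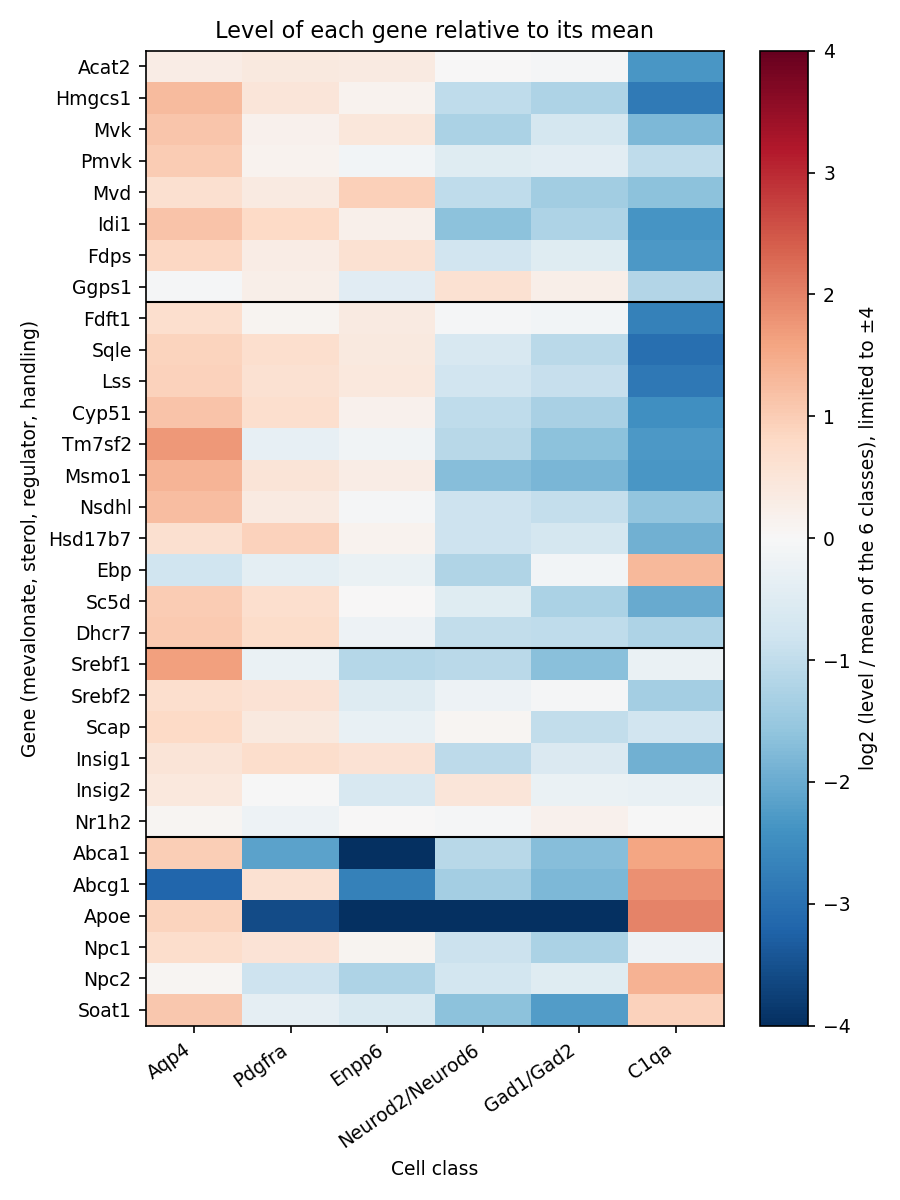
Rows are the 31 genes in order of role (lines part the mevalonate, sterol, regulator and transport and storage genes), columns the 6 cell classes, and colour the log2 ratio of a gene's mean level (n = 2 libraries) to its mean over the 6 classes, limited to ±4. Most synthesis genes are red in Aqp4 cells and blue in C1qa cells, and Ebp, Abca1, Abcg1, Apoe and Npc2 are the 5 genes highest in C1qa cells.

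Against Neurod2/Neurod6 cells, Aqp4 cells had higher levels of 27 of the 31 genes and lower levels of 2, by edgeR's quasi-likelihood test at an adjusted p of 0.05. Of all 14567 genes tested, 36.7% were called higher and 35.3% lower. In the synthesis roles 18 of 19 were higher and 1 lower. Their median log2 fold change was 1.75 against 0.01 over all genes tested. At least 2-fold differences were called for 21 members upward and 1 downward, where 21.4% and 15.6% of all genes were. Fold changes below are on the log2 scale after TMM scaling, with the SE of the fit, and a level in CPM is a gene's own and is not compared between genes, since 3′ counting does not measure molecules per length.

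In the mevalonate steps, Hmgcs1 stood at 861 and 872 CPM in Aqp4 cells, 493 and 514 in Pdgfra cells, 178 and 174 in Neurod2/Neurod6 cells and 56.5 and 45.1 in C1qa cells. Its levels fell from class to class in that order without overlap, and Aqp4 cells exceeded Neurod2/Neurod6 cells by 2.39 ± 0.04 (SE, log2, adjusted p = 3.2e-86). After thinning, 75% and 76.4% of Aqp4 cells held an Hmgcs1 UMI against 26.9% and 26% of Neurod2/Neurod6 cells (93.5% and 95.4% against 54.6% and 59.9% without thinning). Mvk, mevalonate kinase, stood at 151 and 146 CPM in Aqp4 cells, 82.1 and 72.1 in Pdgfra cells, 30.8 and 25.8 in Neurod2/Neurod6 cells and 18 and 21.6 in C1qa cells. Pmvk, the next kinase, stood at 177 and 162 CPM in Aqp4 cells, 94.2 and 89.4 in Pdgfra cells, 61.4 and 58.3 in Neurod2/Neurod6 cells and 42.1 and 40.0 in C1qa cells. Both had their Aqp4 values above all others, by 2.49 ± 0.09 and 1.59 ± 0.06 over Neurod2/Neurod6 cells. Mvd, which decarboxylates mevalonate diphosphate to the first isoprenoid unit, stood at 65.3 and 61 CPM in Aqp4 cells, 52.1 and 51 in Pdgfra cells, 20.3 and 19.6 in Neurod2/Neurod6 cells and 12 and 13.8 in C1qa cells. Idi1, the isomerase of that unit, stood at 294 and 272 CPM in Aqp4 cells, 231 and 213 in Pdgfra cells, 44.4 and 37.6 in Neurod2/Neurod6 cells and 25.8 and 24.4 in C1qa cells. Their differences from Neurod2/Neurod6 cells were 1.75 ± 0.10 and 2.88 ± 0.06, and the Idi1 difference was the largest in this role.

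Fdps joins isoprenoid units to farnesyl diphosphate, where the path to sterols parts from that to other isoprenoids, and stood at 547 and 476 CPM in Aqp4 cells, 375 and 332 in Pdgfra cells, 192 and 149 in Neurod2/Neurod6 cells and 59.5 and 57.1 in C1qa cells. Aqp4 cells were 1.68 ± 0.05 higher than Neurod2/Neurod6 cells. Acat2, which starts the path by joining acetyl-CoA units, varied less, at 116 and 120.2 CPM in Aqp4 cells, 125 and 126 in Pdgfra cells, 102 and 93.8 in Neurod2/Neurod6 cells and 15.6 and 22.6 in C1qa cells. Its difference was 0.36 ± 0.06, and only C1qa cells stood far below the other classes. Ggps1 makes geranylgeranyl diphosphate, which is attached to proteins and leads away from cholesterol, and it was the 1 synthesis gene that was lower in Aqp4 cells. It stood at 35.9 and 41.6 CPM in Aqp4 cells, 45 and 49.7 in Pdgfra cells, 59.5 and 64.8 in Neurod2/Neurod6 cells and 21 and 15.2 in C1qa cells, with the highest values in Neurod2/Neurod6 cells (-0.59 ± 0.09 for Aqp4 against Neurod2/Neurod6 cells, adjusted p = 8.8e-10).

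In the sterol steps all 11 genes were higher in Aqp4 than in Neurod2/Neurod6 cells, where 36.7% of all genes tested were. Fdft1, squalene synthase, had one of the smaller differences, 0.82 ± 0.05, with 186 and 173 CPM in Aqp4 cells, 125 and 117 in Pdgfra cells, 114 and 102 in Neurod2/Neurod6 cells and 18.6 and 16.1 in C1qa cells. Sqle, the oxygen-using squalene epoxidase, stood at 225 and 241 CPM in Aqp4 cells, 193 and 200.5 in Pdgfra cells, 80.9 and 78.1 in Neurod2/Neurod6 cells and 12.6 and 18 in C1qa cells. Lss, which closes the ring to lanosterol, stood at 49.9 and 47.2 CPM in Aqp4 cells, 38.4 and 39.7 in Pdgfra cells, 13.3 and 16.8 in Neurod2/Neurod6 cells and 2.40 and 4.60 in C1qa cells. Sqle and Lss differed by 1.64 ± 0.06 and 1.76 ± 0.12, and their C1qa values lay below every other class. Cyp51, the lanosterol demethylase, stood at 323 and 319 CPM in Aqp4 cells, 232 and 228 in Pdgfra cells, 78.5 and 65.4 in Neurod2/Neurod6 cells and 21.6 and 31.3 in C1qa cells. Msmo1, which oxidises the methyl groups that are then removed, stood at 440.4 and 453 CPM in Aqp4 cells, 246 and 259.8 in Pdgfra cells, 52 and 55.9 in Neurod2/Neurod6 cells and 33.1 and 36.4 in C1qa cells. These differences, 2.25 ± 0.06 and 3.13 ± 0.06, were among the largest, and Msmo1 had the largest of the 19 synthesis genes. Tm7sf2, a sterol reductase, stood at 78.4 and 68.2 CPM in Aqp4 cells, 17.6 and 17.6 in Pdgfra cells, 10.9 and 9.74 in Neurod2/Neurod6 cells and 3.01 and 5.98 in C1qa cells. It set Aqp4 cells apart from Pdgfra cells as well as from neurons (2.91 ± 0.12 against Neurod2/Neurod6 cells).

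Nsdhl and Hsd17b7 complete the removal of methyl groups. Nsdhl stood at 108 and 117 CPM in Aqp4 cells, 62.2 and 60.8 in Pdgfra cells, 26.3 and 28 in Neurod2/Neurod6 cells and 15.6 and 16.6 in C1qa cells. Hsd17b7 stood at 29.9 and 32.2 CPM in Aqp4 cells, 36.5 and 39 in Pdgfra cells, 12.5 and 9.59 in Neurod2/Neurod6 cells and 5.41 and 5.06 in C1qa cells. Their Aqp4 differences from Neurod2/Neurod6 cells were 2.14 ± 0.09 and 1.60 ± 0.14, with no overlap of the libraries. Sc5d, a desaturase near the end of the path, stood at 129 and 132 CPM in Aqp4 cells, 97.3 and 107 in Pdgfra cells, 45.5 and 45.7 in Neurod2/Neurod6 cells and 14.4 and 17 in C1qa cells. Dhcr7, the reductase that makes cholesterol from its precursor, stood at 103 and 97.6 CPM in Aqp4 cells, 80.8 and 81 in Pdgfra cells, 26.2 and 23.1 in Neurod2/Neurod6 cells and 21.6 and 20.3 in C1qa cells. Both showed the common order of Aqp4, Pdgfra, Neurod2/Neurod6 and C1qa cells, with differences of 1.61 ± 0.08 and 2.12 ± 0.09 between Aqp4 and Neurod2/Neurod6 cells. Ebp, the sterol isomerase that acts before Sc5d, did not: it stood at 22.5 and 20.7 CPM in Aqp4 cells, 31.1 and 26.9 in Pdgfra cells, 15.3 and 17.2 in Neurod2/Neurod6 cells and 84.8 and 101 in C1qa cells, highest by far in C1qa cells, and its Aqp4 cells were only 0.48 ± 0.13 above Neurod2/Neurod6 cells.

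Among the regulators, Srebf1, which encodes the SREBP better known for fatty acid genes, had the largest difference. It stood at 56 and 53.2 CPM in Aqp4 cells, 14.7 and 14.5 in Pdgfra cells, 8.84 and 7.94 in Neurod2/Neurod6 cells and 14.4 and 14.7 in C1qa cells, with Aqp4 cells 2.79 ± 0.13 above Neurod2/Neurod6 cells. Srebf2, whose SREBP is known as the main activator of cholesterol synthesis, stood at 126 and 134 CPM in Aqp4 cells, 117 and 124 in Pdgfra cells, 72.6 and 66.9 in Neurod2/Neurod6 cells and 31.3 and 31.8 in C1qa cells. Its difference was 0.99 ± 0.06. Scap, the escort, stood at 31.3 and 32.3 CPM in Aqp4 cells, 23.4 and 24.6 in Pdgfra cells, 17.9 and 20.5 in Neurod2/Neurod6 cells and 13.2 and 8.29 in C1qa cells. Scap and Insig1, the main sterol-regulated retention protein, were 0.81 ± 0.12 and 1.66 ± 0.07 higher in Aqp4 than in Neurod2/Neurod6 cells. Insig1 stood at 127 and 122 CPM in Aqp4 cells, 138 and 145 in Pdgfra cells, 41.3 and 42.7 in Neurod2/Neurod6 cells and 24.6 and 21.2 in C1qa cells, with the Pdgfra values above the Aqp4 values before scaling factors were applied. Insig2 (0.05 ± 0.11, adjusted p = 0.71) and Nr1h2, the gene of LXR beta (0.20 ± 0.10, adjusted p = 0.063), were not called, and on library totals alone Insig2 took the other sign.

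Of the transport and storage genes 5 were higher in Aqp4 than in Neurod2/Neurod6 cells and Abcg1 was lower (36.7% and 35.3% of all genes tested). Apoe stood at 10977 and 9306 CPM in Aqp4 cells, 479.6 and 444 in Pdgfra cells, 96.9 and 115 in Enpp6 cells, 253 and 246 in Neurod2/Neurod6 cells, 362 and 253 in Gad1/Gad2 cells and 23495 and 19752 in C1qa cells. Every C1qa value lay above every Aqp4 value, and both classes lay far above the rest. The Aqp4 difference from Neurod2/Neurod6 cells was 5.42 ± 0.10, and 4.73 with doublets kept. Apoe in the neuronal classes was 2.30 and 2.64% (Neurod2/Neurod6) and 3.30 and 2.72% (Gad1/Gad2) of its Aqp4 level, where astroglial markers and Aqp4 stood at medians of 3.37% and 3.93% of theirs. In Pdgfra and Enpp6 cells Apoe was 4.37 and 4.77% and 0.883 and 1.24%, beside marker medians of 4.24% and 1.31%. Single markers ranged from 1.46% to 22.1% in Neurod2/Neurod6 cells, so low Apoe expression in these 4 classes cannot be told apart from RNA of other cells. Cells that met no class held Apoe at 26.9% and 27.2% of the Aqp4 level. An Apoe UMI was found after thinning in 39.7% and 32.3% of Neurod2/Neurod6 cells (99.4% and 99.2% of Aqp4 cells).

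Abca1, the exporter that loads lipid onto apolipoproteins, stood at 137 and 149 CPM in Aqp4 cells, 14.3 and 18.7 in Pdgfra cells, 8.81 and 0.00 in Enpp6 cells, 32.1 and 34.3 in Neurod2/Neurod6 cells, 18.7 and 25.6 in Gad1/Gad2 cells and 208 and 219.6 in C1qa cells. Aqp4 and C1qa cells stood above all other classes, and Aqp4 cells were 2.19 ± 0.09 above Neurod2/Neurod6 cells. Abcg1, the exporter to formed particles, was distributed otherwise, at 1.82 and 2.03 CPM in Aqp4 cells, 25.9 and 26.5 in Pdgfra cells, 0.00 and 5.35 in Enpp6 cells, 5.90 and 7.49 in Neurod2/Neurod6 cells, 4.64 and 5.29 in Gad1/Gad2 cells and 59.5 and 63.5 in C1qa cells. Its levels were highest in C1qa and Pdgfra cells and its lowest mean was in Aqp4 cells, with 19 and 24 UMIs in all and a range inside that of Enpp6 cells. Aqp4 cells were below Neurod2/Neurod6 cells (-1.72 ± 0.27, adjusted p = 1.1e-08). Soat1, which esterifies cholesterol for storage, stood at 86.3 and 85.4 CPM in Aqp4 cells, 31.7 and 31.5 in Pdgfra cells, 12.5 and 13.2 in Neurod2/Neurod6 cells and 76.9 and 76 in C1qa cells and was 2.82 ± 0.11 higher in Aqp4 than in Neurod2/Neurod6 cells. Npc1 and Npc2, which pass cholesterol out of lysosomes, were 1.64 ± 0.10 and 0.89 ± 0.04 higher. Npc1 stood at 68 and 72.9 CPM in Aqp4 cells, 59.6 and 67.2 in Pdgfra cells, 23.6 and 24.4 in Neurod2/Neurod6 cells and 31.3 and 43.3 in C1qa cells, highest in Aqp4 cells. Npc2 stood at 346 and 333 CPM in Aqp4 cells, 188 and 177 in Pdgfra cells, 197 and 192 in Neurod2/Neurod6 cells and 853 and 836 in C1qa cells, with C1qa cells above all others.

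**Figure D3:**
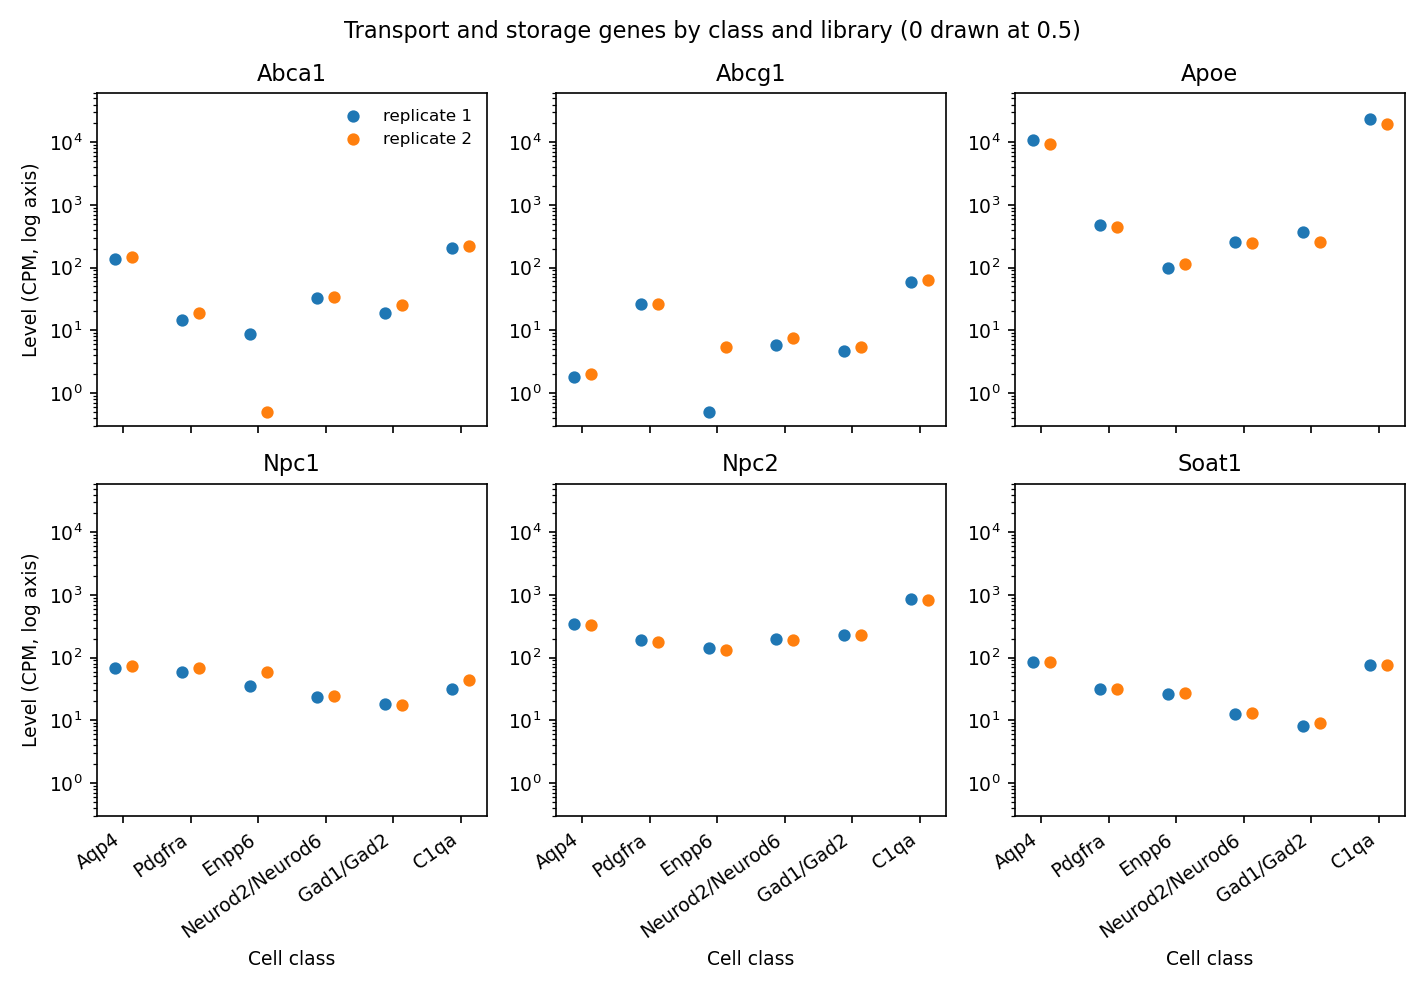
Each panel gives the level in CPM on a log axis of 1 transport and storage gene, with a point for each library (values of 0 are drawn at 0.5) in the 6 cell classes. Abca1, Apoe and Soat1 are high in both Aqp4 and C1qa cells, while Abcg1 is high in C1qa and Pdgfra cells and at 1.82 and 2.03 in Aqp4 cells.

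Pdgfra cells, which carried precursor markers of the oligodendrocyte lineage, had lower levels than Aqp4 cells of 26 of the 31 genes and higher levels of 2 (Ebp and Abcg1), by the same test. Of all genes tested 33.4% were called lower and 35.4% higher. This comparison shares the Aqp4 sums with the one above. The synthesis genes moved by a modest step: 16 of 19 were lower, with a median of -0.54 against 0.02 over all genes. At least 2-fold calls were 10 downward and 1 upward (background 12.9% and 13.4%). Those downward were Mvk (-1.14 ± 0.06), Pmvk (-1.07 ± 0.04), Tm7sf2 (-2.24 ± 0.07), Msmo1 (-1.01 ± 0.03), Nsdhl (-1.06 ± 0.06), Srebf1 (-2.09 ± 0.08), Abca1 (-3.29 ± 0.07), Apoe (-4.64 ± 0.09), Npc2 (-1.09 ± 0.04) and Soat1 (-1.63 ± 0.07). The upward one was Abcg1 (3.57 ± 0.16, adjusted p = 6.6e-44), so the exporters Abca1 and Abcg1 parted in opposite directions between these classes. The levels of Abca1 in Pdgfra cells, 14.3 and 18.7 CPM, and of Abcg1 in Aqp4 cells were both low. TMM scaling moved every gene of this comparison by -0.19 on the log2 scale. On library totals alone 25 members were lower and 5 higher, where 3650 and 6870 of all 14567 genes were. Acat2, called lower at -0.10 ± 0.04 after TMM scaling, took the other sign there without a call. Hsd17b7, Ggps1 and Insig1 were not called after TMM scaling and were higher in Pdgfra cells on library totals.

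C1qa cells had lower levels than Aqp4 cells of 23 members and higher levels of 5. Of all genes tested 34.5% were lower and 30.7% higher. This comparison also shares the Aqp4 sums. Of the synthesis genes 18 of 19 were lower, with a median of -2.65 against -0.13 over all genes. The largest falls were those of Hmgcs1 (-3.73 ± 0.09), Tm7sf2 (-3.56 ± 0.23), Sqle (-3.51 ± 0.13), Lss (-3.34 ± 0.27), Msmo1 (-3.29 ± 0.10), Cyp51 (-3.17 ± 0.11) and Idi1 (-3.10 ± 0.11). Next came Fdft1 (-2.99 ± 0.13), Fdps (-2.74 ± 0.09), Sc5d (-2.65 ± 0.15), Mvk (-2.49 ± 0.14), Nsdhl (-2.41 ± 0.15), Acat2 (-2.21 ± 0.14) and Hsd17b7 (-2.19 ± 0.27). Mvd, Dhcr7 and Pmvk fell by 1.88, 1.87 and 1.66 on the log2 scale and Ggps1 by 0.75. Among the regulators Insig1 (-2.07 ± 0.13), Srebf2 (-1.66 ± 0.12), Srebf1 (-1.51 ± 0.18) and Scap (-1.22 ± 0.22) were lower. At least 2-fold calls were 21 downward and 4 upward (background 24.3% and 19%).

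The synthesis gene that went against the rest was Ebp, at 84.8 and 101 CPM in C1qa cells against 22.5 and 20.7 in Aqp4 cells, a difference of 2.52 ± 0.12 (adjusted p = 1.2e-40). It took 17.5% and 19.8% of the synthesis sum in C1qa cells, where Hmgcs1 took 11.7% and 8.81%. Higher in C1qa cells as well were Abcg1 (5.38 ± 0.20), Npc2 (1.70 ± 0.04), Apoe (1.48 ± 0.08) and Abca1 (0.97 ± 0.08), and Npc1 was lower (-0.51 ± 0.13). Soat1 (0.22 ± 0.10, adjusted p = 0.052) and Nr1h2 (0.31 ± 0.15, adjusted p = 0.057) were not called and took the other sign on library totals alone, since TMM scaling moved every gene of this comparison by 0.39. Insig2 (-0.31 ± 0.19, adjusted p = 0.14) was not called either, and was called lower on library totals.

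Most C1qa cells, 105 of 128 and 124 of 143, met the same threshold for Mrc1, Pf4 and Lyve1 together, and their microglial marker P2ry12 stood at 224 and 249.9 CPM against 229 and 355 in the rest. Without them 23 and 19 cells were left, with 22 members lower and 4 higher, where 3280 and 2406 of all 14385 genes were. In those Apoe was 0.52 ± 0.08 and Abcg1 4.27 ± 0.49 above Aqp4 cells, both called, while Abca1 (0.07 ± 0.17, adjusted p = 0.77) and Ggps1 (-0.70 ± 0.37, adjusted p = 0.13) were not. Ebp (2.21 ± 0.25) and Npc2 (1.55 ± 0.08) were higher with either set of cells. The cells without those markers summed to 673 and 521 CPM of the synthesis genes and 1089 and 1262 of the transport and storage genes other than Apoe, on the same sides of the Aqp4 sums as the whole class. Apoe was 26102 and 21163 CPM in the cells with those markers and 13678 and 11704 in the cells without.

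**Figure D4:**
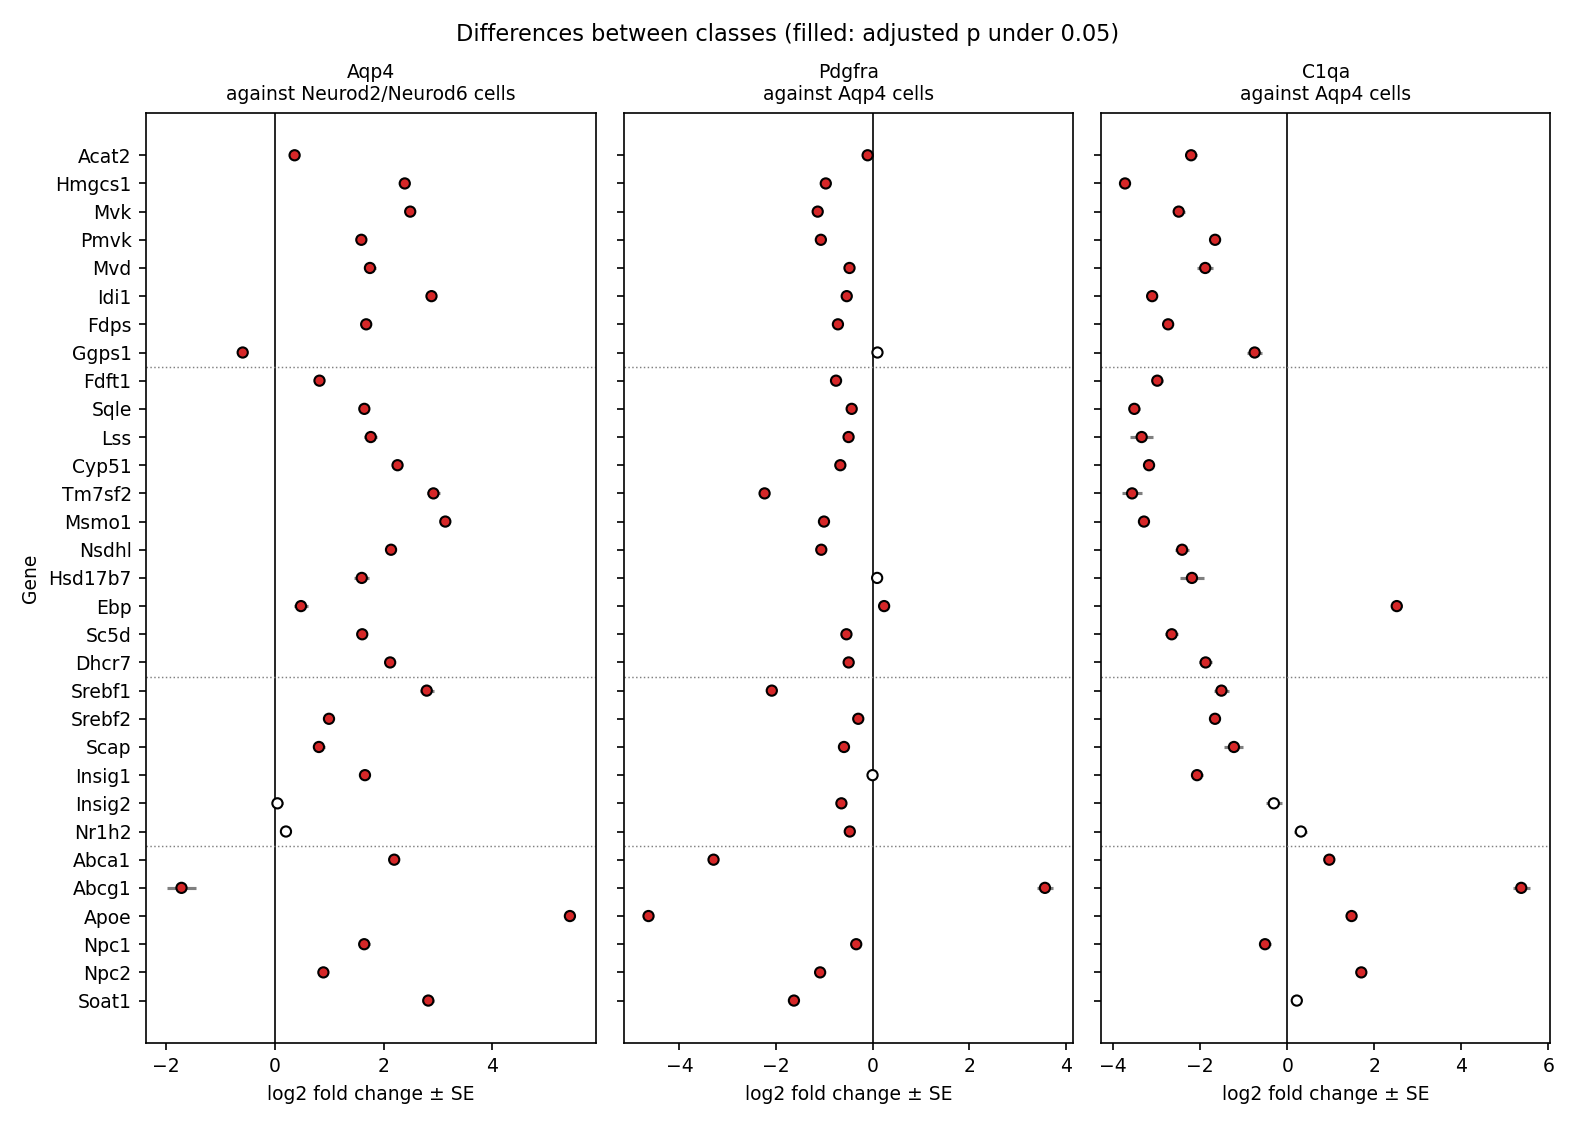
Points give the log2 fold change and lines the SE of each of the 31 genes (edgeR, 2 libraries) for Aqp4 against Neurod2/Neurod6 cells, Pdgfra against Aqp4 cells and C1qa against Aqp4 cells, with filled points at an adjusted p under 0.05 and dotted lines between roles. In the right panel the synthesis genes lie left of 0 apart from Ebp at 2.52, and Abcg1 lies farthest right at 5.38.

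Gad1/Gad2 and Neurod2/Neurod6 cells, the neuronal classes, differed in both directions. With dividing cells kept, the share of members called was close to that of all genes. Of the 31 genes 9 were higher and 8 lower in Gad1/Gad2 cells (background 23.1% and 26.5% of all genes), and the synthesis sum was 0.920 and 1.02 times that of Neurod2/Neurod6 cells. Ebp was the 1 gene called with at least a 2-fold difference (background 8.34% higher and 10.4% lower), at 36.2 and 34.3 against 15.3 and 17.2 CPM (1.20 ± 0.13, adjusted p = 2.1e-14). The libraries did not overlap. Mvk (0.66 ± 0.11), Insig1 (0.58 ± 0.09) and Idi1 (0.54 ± 0.09) were higher, and Scap (-0.94 ± 0.17), Sc5d (-0.67 ± 0.11) and Insig2 (-0.66 ± 0.13) lower. Fdps, Srebf2, Nr1h2, Npc2 and Apoe were also called higher, Apoe at the low level described above, and Ggps1, Sqle, Abca1, Npc1 and Soat1 lower. Dividing cells made up 39.8% and 38.8% of Gad1/Gad2 cells and 2.33% and 1.56% of Neurod2/Neurod6 cells. With dividing cells left out, 10 members were higher and 4 lower, where 2434 and 2717 of all 14002 genes were. The synthesis sums were then 1244 and 1284 CPM in Gad1/Gad2 against 1175 and 1075 in Neurod2/Neurod6 cells, 1.06 and 1.19 times as high. On library totals alone 7 were higher and 13 lower, where 2696 and 4678 of all 14567 genes were, TMM scaling having moved every gene by 0.10. DESeq2 called 8 higher and 5 lower, where it called 2812 and 3194 of all 14567 genes.

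Enpp6 cells, with 30 cells in all, were compared with Pdgfra cells, the earlier stage of their lineage. By edgeR, 2 members were higher and 5 lower (background 7.21% and 10%). Mvd (52.8 and 104 against 52.1 and 51 CPM, 0.86 ± 0.25) and Fdps (388 and 487 against 375 and 332, 0.45 ± 0.12) were higher, with the Mvd value of replicate 1 close to the Pdgfra values. Idi1 (-0.57 ± 0.18), Srebf2 (-0.92 ± 0.24) and Apoe (-1.99 ± 0.28) were lower. Apoe, Abca1 and Abcg1 were the 3 called lower by at least 2-fold, with 0 higher (background 8.15% and 4.37%), Abca1 and Abcg1 on only 1 and 2 UMIs in Enpp6 cells. Per UMI, Pdgfra cells held 8.16 times the Abca1 share of Enpp6 cells (exact 95% interval 1.46 to 322) and 6.38 times the Abcg1 share (1.76 to 52.8), intervals that cover counting error only. Only Apoe kept its call in all 12 refits. As given above, Apoe expression in both classes cannot be told apart from RNA of other cells. The median of astroglial markers and Aqp4 was also lower in Enpp6 than in Pdgfra cells, 1.31% against 4.24% of their Aqp4-class levels. Srebf2 and Abcg1 kept their calls in 10 refits, Mvd in 9, Fdps in 8 and Idi1 and Abca1 in 7. Neither Mvd nor Fdps was called with a gate of 2 UMIs, with no UMI of another gate or after thinning.

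Division went with lower levels, by a small step in the synthesis sum of Pdgfra cells. With Apoe included, the transport and storage sum of dividing Aqp4 cells was 0.475 and 0.556 times that of non-dividing ones. Without Apoe the same ratios were 0.769 and 0.753. Dividing cells, set by Mki67 and Top2a, made up 14.1% and 16.1% of Pdgfra cells and 8.19% and 7.5% of Aqp4 cells. In Pdgfra cells 17 members were lower and 1 higher in dividing cells, where 22.8% of all genes were lower and 15.7% higher. The synthesis sum of dividing Pdgfra cells was 0.928 and 0.951 times that of the others. Abca1 fell by 0.74 on the log2 scale (SE 0.13), from 15.5 and 20.8 to 9.64 and 12.2 CPM, and Acat2 was the gene that was higher (0.27 ± 0.05, 148 and 143 against 119 and 120.1 CPM). Without the library as a block 7 members were lower and 1 higher, where 1713 and 1642 of all 14704 genes were. DESeq2 called 9 lower and 1 higher, where it called 1703 and 1824 of all 14704 genes. In the main fit 3346 of all genes were lower. In Aqp4 cells 17 were lower and 0 higher (background 9.99% and 13.3%). At an unadjusted p of 0.05 edgeR gave 1 higher there. DESeq2 called 18 lower and 0 higher, where it called 1469 and 1537 of all 14704 genes.

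The synthesis sum of dividing Aqp4 cells was 0.797 and 0.768 times that of non-dividing ones, against the values nearer 1 in Pdgfra cells. The difference between these sums was not tested. Apoe stood at 5396 and 5319.8 CPM in dividing and 11764 and 9802 in non-dividing Aqp4 cells (-0.97 ± 0.07). Hmgcs1 stood at 664 and 668 against 889 and 898 (-0.39 ± 0.05). Neither overlapped between dividing and non-dividing cells. The log2 difference between dividing and non-dividing cells of a class is called its division effect here, and its cause was not tested. The difference between the division effects, Pdgfra minus Aqp4, was called positive for 6 members and negative for 1 (background 2.75% and 4.64%). The 6 were Apoe (0.75 ± 0.10), Fdft1 (0.50 ± 0.10), Fdps (0.35 ± 0.07), Pmvk (0.35 ± 0.11), Cyp51 (0.33 ± 0.08) and Hmgcs1 (0.26 ± 0.06), all of them less reduced, or not reduced, in dividing Pdgfra cells. The negative one was Ggps1 (-0.65 ± 0.18). As given above, Apoe expression in Pdgfra cells cannot be told apart from RNA of other cells. Without the library as a block Apoe alone was called, where 84 of all 14704 genes were positive and 90 negative. With no filter on low counts 12 members were called positive, where 1026 of all 23174 genes were.

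**Figure D5:**
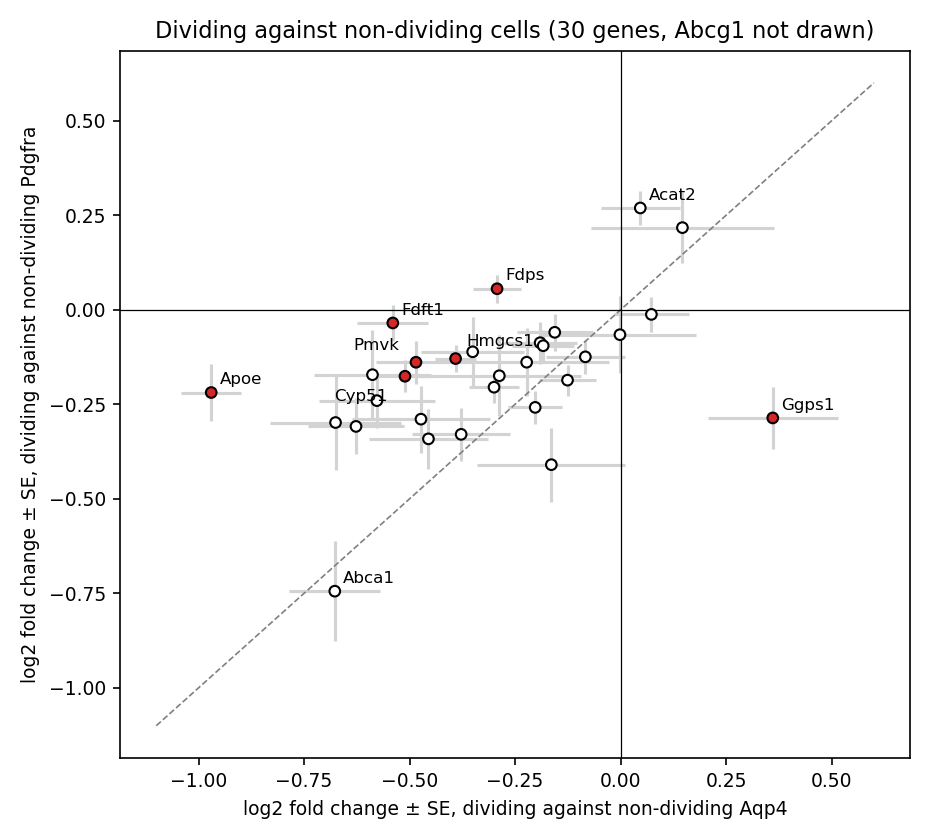
Each point is a gene (30 of the 31, since Abcg1 had at most 1 UMI per library in dividing Aqp4 cells), with the log2 fold change ± SE of dividing against non-dividing cells in the Aqp4 class on the x axis and in the Pdgfra class on the y axis. The dashed line marks equal effects, filled points the 7 genes whose effects differed by the test, among them Apoe at -0.97 and -0.22. Apoe expression in Pdgfra cells cannot be told apart from RNA of other cells.

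Other genes of sterol metabolism were read against the same backgrounds. Of 29 other sterol genes 27 could be tested. Against Neurod2/Neurod6 cells 16 were higher and 5 lower in Aqp4 cells (36.7% and 35.3% of all genes). Lcat (5.33), which esterifies cholesterol on lipoproteins, led, with Apoc1 (4.65) and Clu (4.25), both apolipoproteins. In Pdgfra against Aqp4 cells 13 of the 27 were lower and 8 higher (33.4% and 35.4% of all genes). Lcat (-5.08), Apoc1 (-4.58) and Nr1h3 (-2.62) were the most lowered. In C1qa against Aqp4 cells 12 were higher and 13 lower (30.7% and 34.5% of all genes). Cyp27a1, which oxidises cholesterol, had 71 UMIs in C1qa and 1 in Aqp4 cells (a ratio of 412 per UMI, exact 95% interval 71.7 to 16514), Abcg4, an exporter, was at least 7.46-fold lower in C1qa cells with 0 UMIs (3 counts over both libraries), and Lcat had 3 UMIs there (96.6 times lower, interval 33.0 to 469). Gad1/Gad2 cells had 12 lower and 3 higher than Neurod2/Neurod6 cells (26.5% and 23.1% of all genes), led by Cyp46a1 (-2.77), Mylip (-1.64) and Lrp8 (-1.20). Enpp6 cells had 1 higher and 5 lower than Pdgfra cells (7.21% and 10% of all genes), led by Vldlr (1.83), Lrp8 (-1.77) and Lrp1 (-1.48). Lpl, a lipase, rose with division in both classes (2.85 ± 0.20 in Pdgfra and 2.44 ± 0.34 in Aqp4 cells). Of the 27, Lpl included, 8 were lower and 4 higher in dividing Pdgfra cells (22.8% and 15.7% of all genes). In dividing Aqp4 cells 7 were lower and 2 higher (9.99% and 13.3% of all genes).

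Some counts are uncertain because the annotation places another gene on the same bases. Exons of Ggps1, Fdft1, Lss, Cyp51, Hmgcs1, Srebf1 and Npc1 overlap a gene on the other strand and those of Tm7sf2 one on the same strand, and whether the counting used strand is not stated. Arid4b, the partner of Ggps1, stood at 88.2 and 99.9 CPM in Aqp4, 153 and 165 in Pdgfra, 192 and 207 in Neurod2/Neurod6 and 55.9 and 55.7 in C1qa cells. That is the order of Ggps1 in these classes, but not with the remaining classes included. Arid4b stood at 211 and 289 CPM in Enpp6 cells, its highest mean, while mean Ggps1 was lower in Enpp6 than in Aqp4 cells. In Gad1/Gad2 cells Arid4b stood at 198 and 218 CPM, above Pdgfra cells, and mean Ggps1 was below that of Pdgfra cells. The part of Arid4b reads in the Ggps1 result was not tested. Ctsb, the partner of Fdft1, stood at 246 and 253 CPM in Aqp4, 136 and 131 in Pdgfra and 126 and 123 in Neurod2/Neurod6 cells, the order of Fdft1, and at 2877 and 3149 in C1qa cells, where Fdft1 was lowest. Its part in the Fdft1 values was not tested either. Akap9, the partner of Cyp51, stood at 164 and 168 CPM in Aqp4 and 542 and 608 in Neurod2/Neurod6 cells, opposite to Cyp51, and at 66.1 and 74.6 in C1qa cells, low like Cyp51. Vps51, the partner of Tm7sf2, stood at 10.2 and 11.4 CPM in Aqp4, 21.2 and 21 in Neurod2/Neurod6 and 21.6 and 16.1 in C1qa cells, opposite to Tm7sf2 in both comparisons with Aqp4 cells. Acat2 has a close copy, Acat3, which stood at 2.87 and 1.52 CPM in Aqp4 cells.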

How the data were processed

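The authors deposited raw UMI counts per gene and barcode, filtered matrices of Cell Ranger 6.0.2 per the file headers, for 2 libraries with 97091962 and 108903409 UMIs. The submitters' processing notes list mm10 together with R 4.1.0 and Seurat 4.1.0 but give none of them a role. The gene annotation's release was not given in these sources. Barcodes with under 500 genes (441 and 657) or over 10% mitochondrial UMIs (2189 and 2891) were removed, then doublets marked by Scrublet in scanpy 1.11.5 (7.68% and 7.10%), which left 10366 and 10187 cells with medians of 7273 and 8292 UMIs.

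Counts were summed per class and library and tested with edgeR 4.0.16 in R 4.3.3 (quasi-likelihood, filterByExpr, TMM, library as block since its sums come out of the same capture, Benjamini-Hochberg at 0.05), in a fit of 12 sums with 5 residual degrees of freedom over 14567 genes and, with division, of 16 sums with 7 over 14704. The SE is the log2 fold change divided by the square root of F. The test was tested on simulated data. No label says whether the animals behind the libraries differed. The p-values therefore measure no more than the spread of these 2 samples, and that spread may be technical. The genes and lists were chosen with earlier results of these data known. Every member is accounted for. Per-library values are given for members called with at least a 2-fold difference, the 3 most changed called genes of each other list are named and some genes of these lists are not reported here. Alternatives were other gates and filters, thinning, RLE factors, no low-count filter, no block, DESeq2 1.42.0 and each library left out. Library totals alone and C1qa cells without border macrophage markers, and for the summed levels thinning and leaving out dividing cells, were added after seeing the data. Intervals are exact (Clopper-Pearson, 95%). Python 3.11.15, scipy 1.17.1 and matplotlib 3.10.9 were used.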

Additional observations from a re-analysis of the deposited data

Results flagged for a closer look

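The gap between dividing and non-dividing cells differed between Pdgfra and Aqp4 cells, by edgeR's test of the difference itself, for 7 of the 31 genes. Of all 14704 genes 404 were called positive (Pdgfra minus Aqp4) and 683 negative. Whether division or another trait of the dividing cells underlies this gap was not tested. The log2 difference, Pdgfra minus Aqp4, was 0.75 for Apoe, where levels were 422 and 403 CPM in dividing and 495 and 456 in other Pdgfra cells. It was 0.50 for Fdft1, whose levels were 124 and 115 against 125 and 117 CPM in Pdgfra and 122 and 129 against 195 and 179 in Aqp4 cells. It was 0.35 for Fdps, with 385 and 349 against 372 and 328 and 445 and 390.1 against 561 and 487 CPM. For Pmvk it was 0.35, for Cyp51 0.33 and for Hmgcs1 0.26, with the lower level of each in dividing Aqp4 cells. For Ggps1 it was -0.65, with 41 and 41.1 against 46.1 and 52.4 CPM in Pdgfra and 48.7 and 45.9 against 34.1 and 41.1 in Aqp4 cells. Adjusted p-values were 2.2e-08 for Apoe, 7.2e-05 for Fdft1, 9.6e-05 for Fdps, 0.0015 for Hmgcs1, 0.0038 for Cyp51, 0.009 for Ggps1 and 0.04 for Pmvk. Of 11 refits Apoe kept its call in 11, Fdft1 and Fdps in 10, Cyp51 and Hmgcs1 in 9 and Ggps1 and Pmvk in 6. Without the replicate block Apoe alone was called. The Ggps1 call was also lost with a gate of 5 UMIs, after thinning, without the low-count filter and with DESeq2. The dividing Aqp4 sums held 95 and 89 cells and the dividing Pdgfra sums 461 and 566. Apoe in Pdgfra cells was at the level of other astroglial RNAs there.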

How the results depend on the processing

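The 62 fold changes of members called with at least a 2-fold difference were refitted 770 times. They kept their sign in each refit and in each library alone, and 763 kept the call. The 7 lost calls were Abca1 and Abcg1 in Enpp6 against Pdgfra cells, whose Enpp6 sums hold 1 and 2 UMIs. Thinning to 2000 UMIs moved Sqle in C1qa against Aqp4 cells from -3.51 to -4.78 and Scap from -1.22 to -3.15. It also moved Cyp51 to -3.94, Idi1 to -3.73 and Srebf2 to -2.26.

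Members called changed by over 1.5 times as follows, and the cause was not tested. In Aqp4 against Neurod2/Neurod6 cells thinning left 1 lower in place of 2, where 3644 of all 12251 genes were, against 5145 of 14567 in the main fit. In Pdgfra against Aqp4 cells 1 was higher in place of 2 without the low-count filter and with DESeq2, and 5 on library totals. Of all 14567 genes 5154 were higher there in the main fit, 3924 with DESeq2 and 6870 on library totals. Without the filter 4981 of 23174 were. In Enpp6 against Pdgfra cells the number higher was 0 in place of 2 with a gate of 2 UMIs, with no UMI of another gate and after thinning. Of all genes 1051 of 14567 were higher there in the main fit and 975 of 14741 with a gate of 2 UMIs. With no UMI of another gate 744 of 13893 were, and after thinning 154 of 12251. The number lower there was 2 in place of 5 with no UMI of another gate and with DESeq2, 3 at 5% mitochondrial UMIs and 1 after thinning. Of all 14567 genes 1462 were lower there in the main fit and 842 with DESeq2. The count was 1073 of 13893 with no UMI of another gate, 1575 of 14484 at 5% mitochondrial UMIs and 343 of 12251 after thinning. In Gad1/Gad2 against Neurod2/Neurod6 cells the number lower was 4 in place of 8 without dividing cells and after thinning, 5 with DESeq2 and 13 on library totals. Of all 14567 genes 3861 were lower there in the main fit, 3194 with DESeq2 and 4678 on library totals. The count was 2717 of 14002 without dividing cells and 2023 of 12251 after thinning. In dividing Pdgfra cells the number higher was 3 in place of 1 with no UMI of another gate. It was 2 with doublets kept, RLE factors or library totals and 0 after thinning. Of all 14704 genes 2311 were higher there in the main fit, 2448 with RLE factors and 2436 on library totals. The count was 2096 of 14015 with no UMI of another gate, 2368 of 14876 with doublets kept and 1141 of 12140 after thinning. The number of members lower in dividing Pdgfra cells was 6 in place of 17 after thinning and 9 with DESeq2. Of all 14704 genes 3346 were lower there in the main fit and 1703 with DESeq2, and 1121 of 12140 after thinning. In dividing Aqp4 cells 1 was higher in place of 0 with a gate of 2 UMIs, where 2663 of all 14862 genes were, against 1950 of 14704 in the main fit. For the difference of the division effects 11 in place of 6 were positive with a gate of 2 UMIs and 12 without the low-count filter. The number negative was 0 in place of 1 with a gate of 5 UMIs, after thinning, without that filter and with DESeq2. Of all genes 404 of 14704 were positive in the main fit, 673 of 14862 with a gate of 2 UMIs and 1026 of 23174 without the filter. Negative were 683 of 14704 in the main fit and 264 with DESeq2. Negative counts were 48 of 14372 with a gate of 5 UMIs, 31 of 12140 after thinning and 172 of 23174 without the filter.

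Without the replicate block 1 member was higher in Pdgfra against Aqp4 cells and 1 in Enpp6 against Pdgfra cells, 7 were lower in dividing Pdgfra cells, and 1 positive and 0 negative differences of the division effects were called. The block changed no other count of members by over 1.5 times. Of all 14567 genes 4414 were higher in Pdgfra against Aqp4 cells without the block, against 5154 with it. In Enpp6 against Pdgfra cells 932 were higher without it and 1051 with it. Of all 14704 genes 1713 were lower in dividing Pdgfra cells without the block, against 3346 with it. Differences of the division effects were positive for 84 and negative for 90 of all genes, against 404 and 683 with the block. Library differences of the classes correlated by -0.02 to 0.18.

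Summed levels moved by more than their SD as follows. Synthesis moved to 3763 (gate of 2 UMIs), 4001 (gate of 5) and 3999 CPM (without dividing cells) in Aqp4 cells, and to 2603, 2708 and 2677 and, thinned, 2753 in Pdgfra cells. With doublets kept it moved to 1206 in Neurod2/Neurod6, 1137 in Gad1/Gad2 and 558 in C1qa cells, without dividing cells to 1264 in Gad1/Gad2 cells and without cells with border macrophage markers to 597 in C1qa cells. The transport and storage sum is given here with Apoe included. Its main means were 10782.5 CPM in Aqp4, 782 in Pdgfra, 520 in Neurod2/Neurod6, 590 in Gad1/Gad2 and 22857 in C1qa cells. With doublets kept it moved to 925 in Pdgfra, 674 in Neurod2/Neurod6 and 717 in Gad1/Gad2 cells. Without dividing cells it moved to 808 in Pdgfra and 727 in Gad1/Gad2 cells. Thinned, it moved to 12729 in Aqp4, 870.2 in Pdgfra and 532 in Neurod2/Neurod6 cells. At 5% mitochondrial UMIs it moved to 740.3 and 513 in Pdgfra and Neurod2/Neurod6 cells, and in the latter to 609.7 and 473 with gates of 2 and 5 UMIs and 488 with no UMI of another gate. In C1qa cells without border macrophage markers it moved to 13866.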

Other observations

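Genes of fatty acid synthesis, which SREBP proteins also switch on, were mostly higher in Aqp4 cells. Of 11 such genes 9 were higher and 2 lower there than in Neurod2/Neurod6 cells, where 36.7% and 35.3% of all genes were, and the median log2 fold change was 1.35 against 0.01 over all genes tested. The most raised were the desaturases Scd1 (3.53 ± 0.13), Fads2 (3.08 ± 0.06) and Scd2 (2.52 ± 0.04). Fads2 stood at 382 and 385 CPM in Aqp4 cells, 93.9 and 98.3 in Pdgfra cells, 79.3 and 66.9 in Enpp6 cells, 46.6 and 49.5 in Neurod2/Neurod6 cells, 53.9 and 59.1 in Gad1/Gad2 cells and 6.61 and 14.7 in C1qa cells. Pdgfra cells were lower than Aqp4 cells for 7 and higher for 1 (33.4% and 35.4% of all genes), again led by Fads2 (-2.18 ± 0.04), Scd1 (-1.68 ± 0.07) and Scd2 (-1.57 ± 0.03). C1qa cells were lower for 10 and higher for 1 (34.5% and 30.7% of all genes), led by Fads2 (-4.71 ± 0.13), Scd1 (-4.68 ± 0.28) and Elovl6 (-3.66 ± 0.25), an elongase. In Enpp6 against Pdgfra cells Acsl3, which activates fatty acids, was the 1 of 11 called higher, near the 7.21% of all genes (1.88 ± 0.17), at 264 and 270.2 against 71.2 and 76.8 CPM. Gad1/Gad2 cells had 4 lower and 1 higher than Neurod2/Neurod6 cells (26.5% and 23.1% of all genes), with Acaca (-0.96 ± 0.11) and Elovl6 (-0.51 ± 0.11) the most lowered and Fads2 (0.33 ± 0.09) the one raised.

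The cells that met no class, 4159 and 3464, held 2127 and 2169 CPM of the 19 synthesis genes and 384 and 406 CPM of the transport and storage genes other than Apoe. Both lie between the neuronal and the Aqp4 values. Their Srebf1 level was 26.4 and 29.7 CPM, above that of Pdgfra cells (14.7 and 14.5). Their median depth was 3647 and 5329.5 UMIs, below that of each class.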
